A study of Mus musculus with 10 samples.

Results

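Plac8, Ly6c1, Ly6c2, Ly6a, Ly6e, Ly6i, Fgl2, F13a1 and Chil3 are 9 genes that are used to describe the state of monocytes and of the macrophages that arise from them, and their expression was followed in bone marrow derived macrophages (BMDMs) of wild type (WT) and Rac2-/- mice. The 9 genes were selected on their measured WT and Rac2-/- levels in these same arrays, so the genotype differences of these genes are a description and carry no test. Of the 9 genes, 6 were read from an array feature that the platform annotation gives to that gene alone, among 19937 genes read in this way from 34760 features. These were Plac8, Fgl2, Ly6i, Ly6e, Chil3 and F13a1, and all 6 passed the filter on low values. Ly6c1 and Ly6c2 share their 2 features, so no value was read for either, and Ly6a was not read here.

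The series compares 5 WT with 5 Rac2-/- BMDM samples, each on 1 whole-transcript mouse array of Affymetrix, and asked what Rac2, a small GTPase of blood cells, contributes to the state of macrophages. Both groups were male mice, of strain C57BL by the labels, and the methods speak of Rac2-/- mice and normal littermates on C57BL/6J. Marrow cells of both groups were grown for 7 days on 50 ng/ml MCSF, the growth factor that drives macrophage differentiation, in medium with 20% serum at 16% oxygen, and received no other treatment. Cells were taken on culture day 8, and adherence was the sole selection, so the arrays measured a mixed culture and not a sorted population. The design speaks of 5 mice per genotype, but the labels do not tie an array to a mouse, so the spread between arrays may be partly technical. All values are log2 expression levels, in which a difference of 1 is a doubling.

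Classical monocytes of the mouse carry the surface protein Ly6C, leave the marrow through the chemokine receptor Ccr2 and give rise to macrophages in inflamed tissue, while a second, patrolling class carries little Ly6C and much Cx3cr1. The Ly6 genes encode small proteins that are tied to the cell surface by a lipid anchor, and several of them are induced by interferons. MCSF turns marrow precursors into macrophages by way of monocytes, and genes of the monocyte stage are lost to different degrees as these cells mature.

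The level of Rac2 itself was 12.10 ± 0.27 for WT and 7.10 ± 0.29 for Rac2-/- BMDMs (SD, n = 5 each), with WT arrays from 11.81 to 12.42 and Rac2-/- arrays from 6.80 to 7.54. The macrophage genes Lyz2, Csf1r and Adgre1 had mean levels of 12.57 to 13.14 in both genotypes, so the defining markers of the labelled cell type were present. Arrays 1 and 2 of both genotypes stood apart from arrays 3 to 5. Deviations from the group means correlated across features at 0.476 to 0.724 within either set of arrays, and at -0.716 to -0.515 between the sets. For the 6 genes, differences within each set are therefore given beside the pooled ones. Across the features that passed the filter limma found 514 with an adjusted p under 0.05, or 1.9%. Those higher in WT made up 1.11% and those higher in Rac2-/- cells 0.795%. The share was 6.35% when the replicate number entered as a block. That block assumes that same numbers are pairs, which neither the labels nor the values show beyond the sets of arrays.

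The sequences upstream of the genes with the largest genotype differences (Plac8, F13a1 and Fgl2), and of Chil3, which had the widest spread between arrays, are shown first. They are the 250 bases before the annotated start, from RefSeq on GRCm38.p6, written 5′ to 3′ in the direction of the gene. Capitals mark matches to the searched motifs.
Plac8, first start (chr5:100572206-100572455, minus strand): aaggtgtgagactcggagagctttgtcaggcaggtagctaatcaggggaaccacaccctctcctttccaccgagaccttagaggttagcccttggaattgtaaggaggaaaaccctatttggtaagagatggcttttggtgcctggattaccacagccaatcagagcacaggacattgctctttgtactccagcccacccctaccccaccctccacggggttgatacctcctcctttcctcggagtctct
Plac8, second start (chr5:100563097-100563346, minus strand): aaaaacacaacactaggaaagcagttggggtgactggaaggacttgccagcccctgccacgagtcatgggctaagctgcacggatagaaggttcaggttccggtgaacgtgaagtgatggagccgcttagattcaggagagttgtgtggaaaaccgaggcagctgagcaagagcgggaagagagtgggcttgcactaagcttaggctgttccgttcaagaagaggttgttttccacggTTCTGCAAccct
Fgl2 (chr5:21372423-21372672, plus strand): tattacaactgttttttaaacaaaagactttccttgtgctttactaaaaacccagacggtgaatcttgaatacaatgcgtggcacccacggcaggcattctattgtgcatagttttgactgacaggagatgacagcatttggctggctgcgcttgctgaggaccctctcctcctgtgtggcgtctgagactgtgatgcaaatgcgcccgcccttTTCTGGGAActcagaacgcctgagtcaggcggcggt
F13a1, first start (chr13:37050245-37050494, minus strand): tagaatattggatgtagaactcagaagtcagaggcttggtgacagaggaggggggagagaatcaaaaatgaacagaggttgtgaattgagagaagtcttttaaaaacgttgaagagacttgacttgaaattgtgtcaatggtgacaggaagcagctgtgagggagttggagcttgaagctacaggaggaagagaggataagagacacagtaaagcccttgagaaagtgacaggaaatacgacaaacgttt
Chil3 (chr3:106167565-106167814, minus strand): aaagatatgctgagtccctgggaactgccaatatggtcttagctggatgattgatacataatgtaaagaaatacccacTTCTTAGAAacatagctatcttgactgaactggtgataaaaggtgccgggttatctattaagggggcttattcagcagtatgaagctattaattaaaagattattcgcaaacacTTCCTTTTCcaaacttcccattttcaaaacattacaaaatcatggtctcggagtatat

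Windows of 250 bases before to 50 bases after the start were found for 6 of the 9 genes (Plac8, Ly6c1, Ly6c2, Fgl2, F13a1 and Chil3). They were searched on both strands for GAAANNGAA (the core of the interferon-stimulated response element), the palindrome TTCNNNGAA (a STAT site), GAGGAAGT (a PU.1 site) and TTGCNNAA (a C/EBP site). Of 32851 mouse windows, 8.56%, 8.3%, 3.2% and 10.8% held these motifs in that order. The first Plac8 window held none, and the second held a C/EBP match that begins 12 bases before the start. Fgl2 held a STAT match that begins 36 bases before the start. The first F13a1 window held none, and the second, which is not printed, had a PU.1 match 15 bases after its start. Chil3 held an interferon element match 58 bases and a STAT match 172 bases before the start. PU.1 matches were also present for Ly6c1 and Ly6c2. No match overlapped a match of another motif. These are matches of letters within these windows and say nothing about binding.

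Of the 6 genes read, 5 had the higher mean in WT and 1, F13a1, in Rac2-/- BMDMs. The arrays of the genotypes did not overlap for 2 of the 6, Plac8 and F13a1, while 4.52% of all features had no overlap. Of the 6, 1 gene (Plac8) was among the features higher in WT, where the background is 1.11%. The choice of these genes used this contrast, so nothing is read from these counts. The median genotype difference of the 6 genes was 0.55, against 0.000341 for all features kept.

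**Figure D1:**
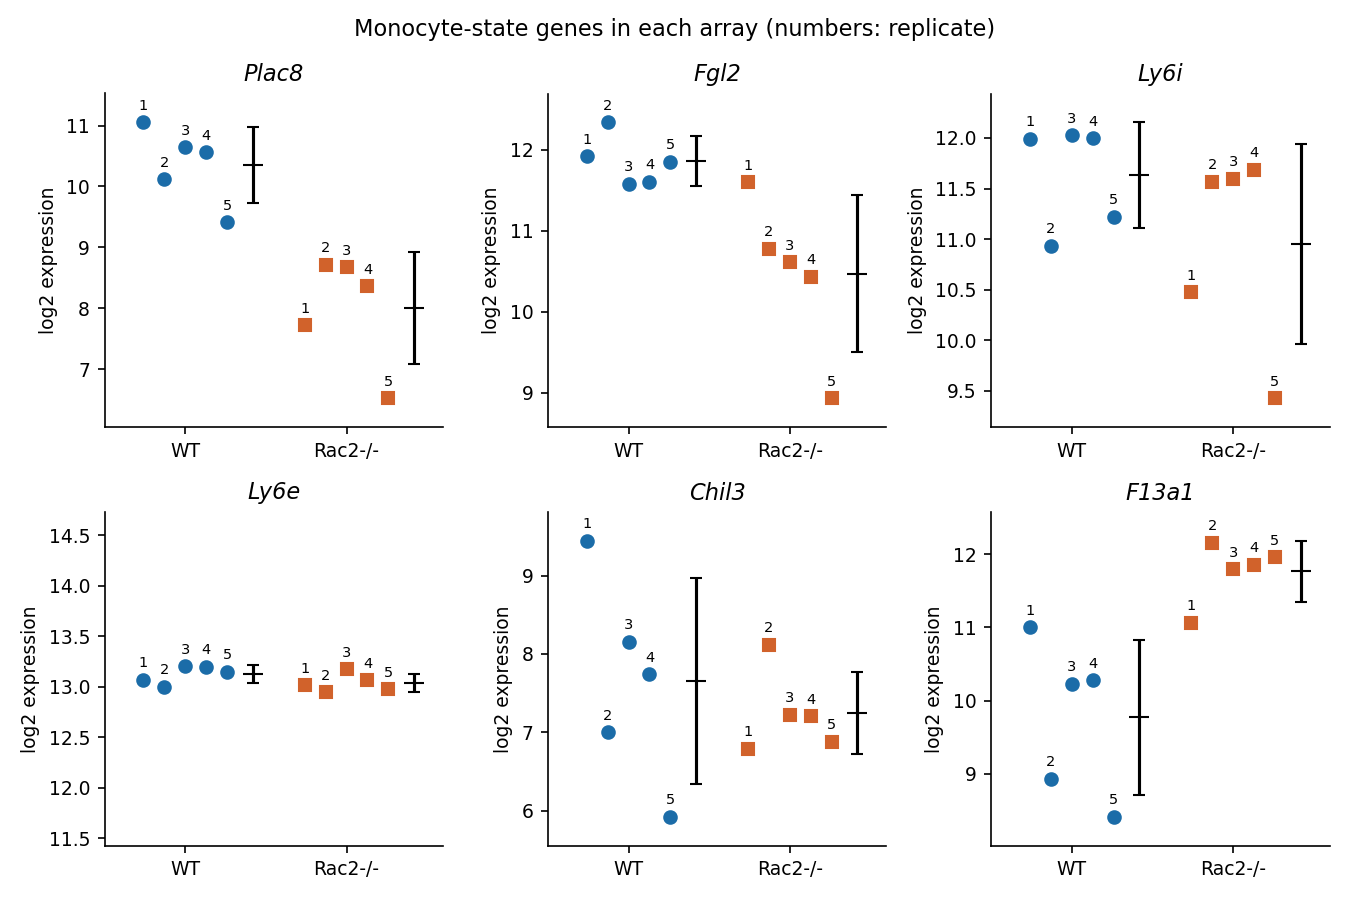
Log2 expression of the 6 genes in each of 10 arrays, with WT arrays as circles, Rac2-/- arrays as squares, replicate numbers above the points and bars for the mean and SD (n = 5), each gene on its own axis. Plac8 was higher in all WT than in all Rac2-/- arrays, F13a1 the reverse, and Ly6e lay between 12.95 and 13.20 in all arrays.

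Plac8 encodes a small cysteine-rich protein that is found in monocytes and granulocytes and serves as a marker of classical monocytes. In WT arrays 1 to 5, in that order, Plac8 was 11.05, 10.12, 10.65, 10.57 and 9.41. In Rac2-/- arrays 1 to 5 it was 7.72, 8.72, 8.67, 8.36 and 6.52. Every WT array was above every Rac2-/- array, with a gap of 0.70 between the lowest WT array, number 5, and the highest Rac2-/- array, number 2. The means were 10.36 ± 0.62 and 8.00 ± 0.92 (SD, n = 5 each), a difference of 2.36 (SE 0.44), or 5.12-fold. The difference was 2.36 within arrays 1 and 2 and 2.35 within arrays 3 to 5. Leaving out 1 array at a time gave 1.99 (without Rac2-/- 5) to 2.59 (without WT 5). Of all features kept, 22 differed by at least as much in either direction, Plac8 included. In these cultures fewer cells of a type and less RNA per cell cannot be told apart.

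F13a1 encodes the A subunit of coagulation factor XIII, a transglutaminase that cross-links fibrin and that monocytes and macrophages make in quantity. In WT arrays 1 to 5 it was 11.00, 8.93, 10.23, 10.28 and 8.41. The Rac2-/- arrays read 11.07, 12.16, 11.79, 11.86 and 11.96. All Rac2-/- arrays were above all WT arrays, but by a gap of only 0.06 between Rac2-/- 1 and WT 1. The WT arrays spanned 2.59 and the Rac2-/- arrays 1.09. The means were 9.77 ± 1.06 in WT and 11.77 ± 0.41 in Rac2-/- cells (SD, n = 5 each), so F13a1 was 3.99-fold higher in the cells without Rac2, with a WT minus Rac2-/- difference of -1.997 (SE 0.46). Within arrays 1 and 2 the difference was -1.65, and within arrays 3 to 5 it was -2.23. Without single arrays it ran from -2.31 (without WT 1) to -1.66 (without WT 5), and 41 features differed by at least as much in either direction, F13a1 included. Thus F13a1 and Plac8, both genes of the monocyte stage, had their higher levels in opposite genotypes.

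Fgl2 encodes a fibrinogen-like protein that acts as a prothrombinase at the surface of macrophages and, when secreted, dampens immune responses. It is known to be induced by interferon gamma. In WT arrays 1 to 5 it was 11.92, 12.34, 11.58, 11.60 and 11.85, and in Rac2-/- arrays 1 to 5 it was 11.60, 10.78, 10.61, 10.44 and 8.93. The WT arrays lay within 0.76 of each other, whereas the Rac2-/- arrays spanned 2.67. The genotypes overlapped by 0.02, through Rac2-/- 1 and WT 3. The means were 11.86 ± 0.31 and 10.47 ± 0.97 (SD, n = 5 each), a difference of 1.39 (SE 0.41) or 2.62-fold. The difference was 0.94 within arrays 1 and 2 and 1.69 within arrays 3 to 5. It was 1.00 without Rac2-/- 5 and 1.67 without Rac2-/- 1, the lowest and highest values with an array left out.

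Ly6i, a Ly6 gene of macrophages and monocytes, was 11.99, 10.93, 12.03, 11.9992 and 11.22 in WT arrays 1 to 5. In Rac2-/- arrays 1 to 5 it was 10.47, 11.57, 11.60, 11.68 and 9.43. Rac2-/- 2, 3 and 4 were above WT 2 and WT 5, so the genotypes overlapped, and Rac2-/- 5 was the lowest array. The means were 11.63 ± 0.52 and 10.95 ± 0.99 (SD, n = 5 each), a difference of 0.68 (SE 0.45). The difference was 0.44 in arrays 1 and 2, 0.85 in arrays 3 to 5, and 0.30 once Rac2-/- 5 was left out. Ly6 genes are close copies of each other, so the feature may also have caught RNA of Ly6c1, Ly6c2 or Ly6a, and its value for Ly6i is uncertain to that extent.

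Ly6e, an interferon-induced Ly6 protein that limits the entry of some viruses, had the smallest measured spread of the 6 genes. Its WT arrays ran from 12.999 to 13.20 with a median of 13.15, and its Rac2-/- arrays from 12.95 to 13.17 with a median of 13.01. The groups overlapped, and the means of 13.12 ± 0.09 and 13.03 ± 0.09 (SD, n = 5 each) differed by 0.09 (SE 0.08). The difference was 0.05 within arrays 1 and 2 and 0.11 within arrays 3 to 5, and 0.07 to 0.12 with an array left out. In either genotype Ly6e lay above about 99.9% of features, near the top of the range of the arrays. Whether spread and genotype differences are read in full at such levels was not tested, so a steady Ly6e level is uncertain.

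Chil3 encodes Ym1, a chitinase-like lectin that marks alternatively activated mouse macrophages and is also made by monocytes and neutrophil precursors. In WT arrays 1 to 5 it was 9.44, 7.00, 8.15, 7.74 and 5.92, and in Rac2-/- arrays 1 to 5 it was 6.79, 8.12, 7.22, 7.21 and 6.88. The highest and the lowest array were both WT, and all Rac2-/- arrays lay between them. The means were 7.65 ± 1.31 and 7.24 ± 0.52 (SD, n = 5 each), a difference of 0.41 (SE 0.56). It was 0.77 within arrays 1 and 2 and 0.17 within arrays 3 to 5. The sign rested on single arrays, since it was -0.04 without WT 1 and 0.84 without WT 5.

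**Figure D2:**
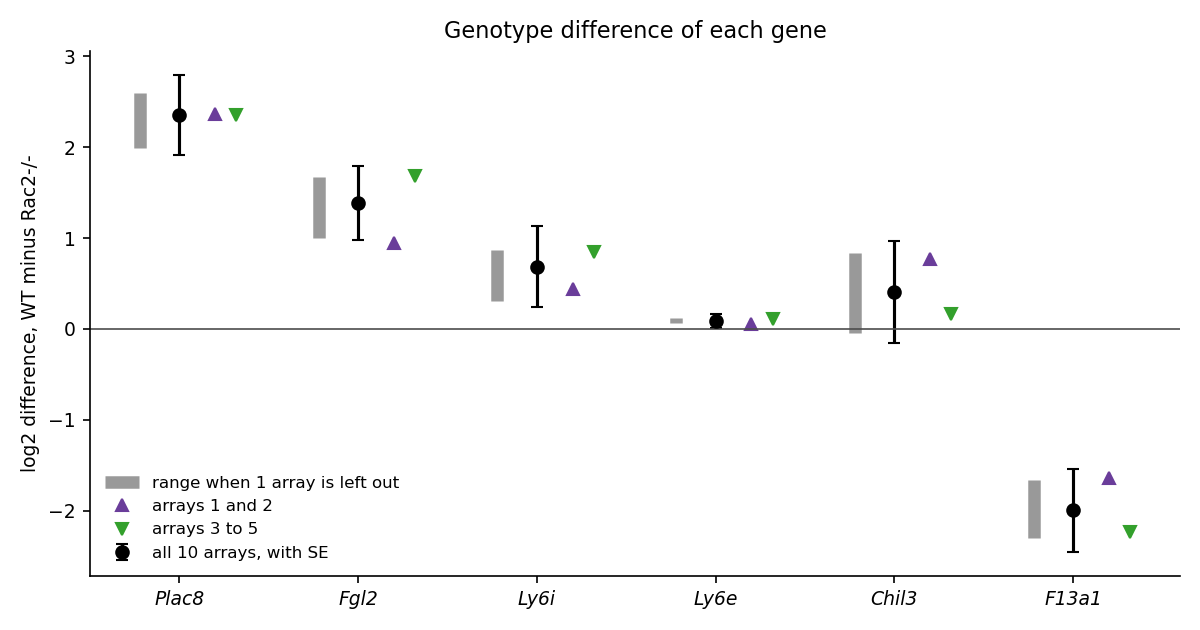
WT minus Rac2-/- log2 difference of each gene over all 10 arrays (black circle with SE), within arrays 1 and 2 and within arrays 3 to 5 (triangles), and its range when 1 array at a time is left out (grey bar). The Plac8 difference was 2.36 and 2.35 in the sets, and the bar of Chil3 crosses 0.

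Whether the genotype difference of these genes depended on the set of arrays was tested as an interaction, which their choice did not use. In limma no feature had an adjusted p under 0.05 for it (0, or 0%), and 1560 had an unadjusted p under 0.05. The interaction (the difference within arrays 3 to 5 minus that within arrays 1 and 2) was 0.74 for Fgl2 (SE 0.65, adjusted p = 0.942), -0.59 for F13a1 (SE 0.98, adjusted p = 0.964) and -0.60 for Chil3 (SE 1.14, adjusted p = 0.966). For Ly6i it was 0.41 (SE 0.97, adjusted p = 0.974), for Ly6e 0.06 (SE 0.12, adjusted p = 0.969) and for Plac8 -0.01 (SE 0.94, adjusted p = 0.999). With SEs near 1 for most genes, interactions of the size of the differences themselves were not detectable with these arrays.

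All genes read but Ly6e varied widely between arrays of 1 genotype. The pooled SD within genotypes was 0.72 for Fgl2, 0.78 for Plac8, 0.79 for Ly6i, 0.81 for F13a1 and 1.00 for Chil3, and it exceeded that of 94.8% to 98.6% of all features, whose median was 0.222. For Ly6e it was 0.09, and 4.79% of features had a smaller one. Arrays 2 and 5 were the lowest WT arrays for Plac8, Ly6i, F13a1 and Chil3 alike. WT 2 was instead the highest WT array for Fgl2. Rac2-/- 5 was the lowest Rac2-/- array for Plac8, Ly6i and Fgl2, and Rac2-/- 1 for F13a1 and Chil3.

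The variation within genotypes ran alike in some pairs of genes. Plac8 and Ly6i lay on the same side of their group means in 5 of 5 WT and 5 of 5 Rac2-/- arrays, and their deviations differed by a root mean square of 0.289. F13a1 and Chil3 lay on the same side in 5 of 5 WT but 2 of 5 Rac2-/- arrays, with a root mean square difference of 0.358. The next closest pair was Plac8 and Chil3 at 0.631, and Fgl2 was at 0.656 to 1.12 from the other genes. Plac8 and Ly6i each lay on the same side as F13a1 in 5 of 5 WT and 4 of 5 Rac2-/- arrays, at 0.671 and 0.745. These are descriptions over 10 arrays that share the split into arrays 1 and 2 and arrays 3 to 5.

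**Figure D3:**
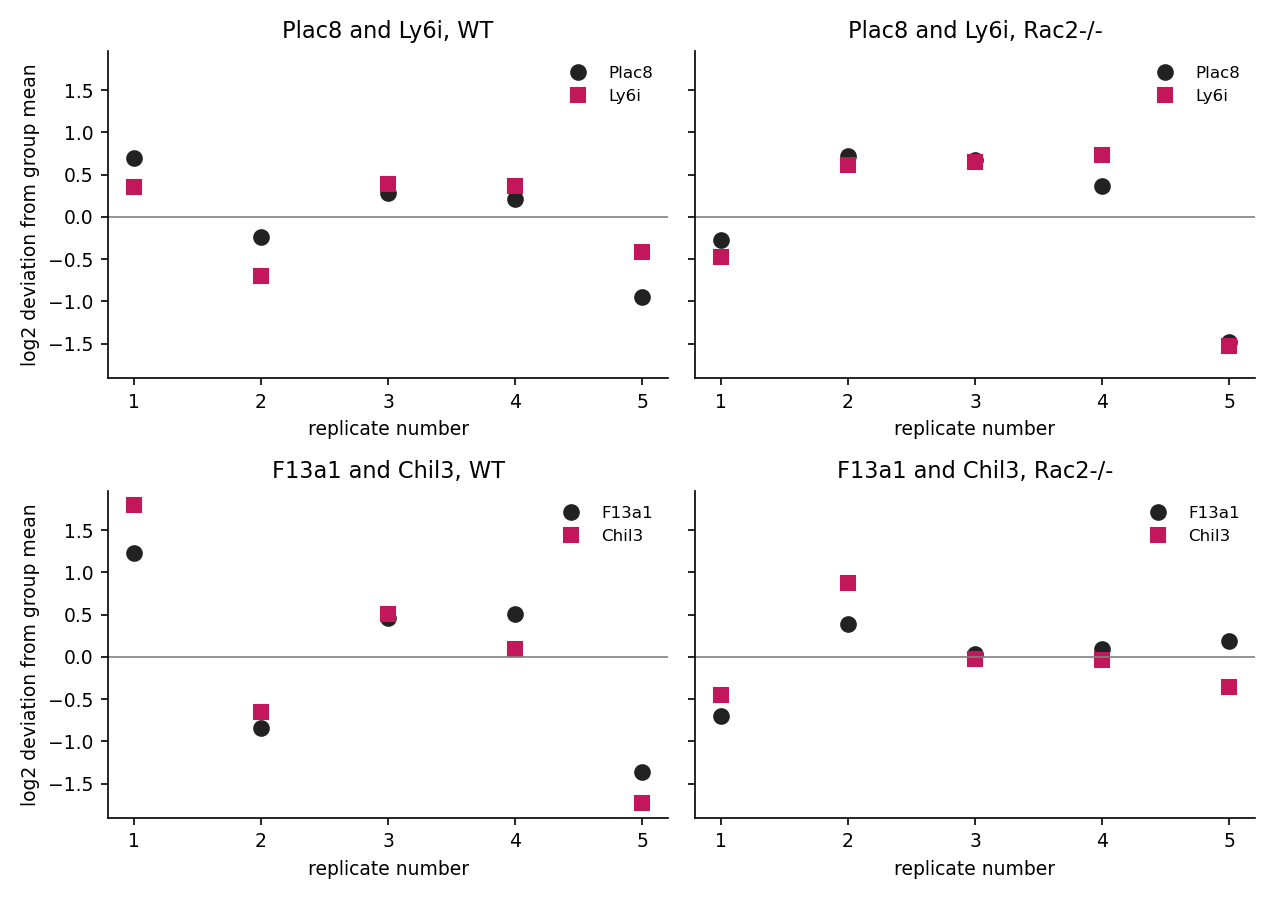
Log2 deviation of each array from the mean of its group, by replicate number, for Plac8 with Ly6i and for F13a1 with Chil3 (circles and squares), WT on the left and Rac2-/- on the right. WT 2 and WT 5 lie below 0 for all 4 genes.

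Among 16882 genes the profiles over the 10 arrays, each centred on its own mean, were compared by their root mean square difference. This measure takes in the genotype difference on which the 9 genes were chosen, so near genes largely share that difference. WT minus Rac2-/- was 1.76 to 2.64 for the genes nearest to Plac8, 1.29 to 1.62 for Fgl2 and -2.17 to -1.88 for F13a1. Nearest to Plac8 were Slfn1 at 0.388, Ccl8, a chemokine that attracts monocytes, at 0.425 and G530011O06Rik at 0.551, while the median gene was at 1.39. Nearest to Fgl2 were Iigp1, an interferon-inducible GTPase, at 0.107, Ifit3b, an interferon-induced antiviral gene, at 0.181 and the class I histocompatibility gene H2-Q4 at 0.228, with a median of 0.962. Nearest to F13a1 were Chil1, a chitinase-like relative of Chil3, at 0.630, the sorting receptor gene Sort1 at 0.655 and Vcan, which encodes the proteoglycan versican, at 0.659, with a median of 1.25. After the values were seen, the nearest genes of Chil3 were also read. They were S100a9 at 0.425, Cd177 at 0.517 and Ltf at 0.521, all known from neutrophils.

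The levels of 11 neutrophil markers went with Chil3, F13a1, Plac8 and Ly6i in the WT arrays. The mean level of the markers was 8.77, 7.19, 9.08, 9.04 and 7.17 in WT arrays 1 to 5 and 6.96, 8.30, 8.58, 8.47 and 7.93 in Rac2-/- arrays 1 to 5. WT 2 and WT 5 were the lowest WT arrays for the markers as for the 4 genes, and Rac2-/- 1 was the lowest Rac2-/- array for the markers, F13a1 and Chil3. Plac8 and Ly6i were instead lowest in Rac2-/- 5. WT 2 and WT 5 were also the lowest WT arrays for progenitor (5.96 and 6.01), eosinophil (5.89 and 5.83) and fibroblast markers (6.46 and 6.29). They were not the lowest pair for macrophage or dendritic cell markers. Of the markers, 0 of 11 passed the test between genotypes, and their median difference was 0.27. S100a8 ran from 7.45 to 10.74 in WT and from 7.15 to 9.97 in Rac2-/- arrays, and Ltf from 6.87 to 10.19 and from 6.82 to 8.99. The part of neutrophils or their precursors in the levels of the 4 genes was not tested. Of the 10 macrophage markers 0 passed without the replicate block. With it Itgam, at a difference of -0.33, had an adjusted p of 0.038 and Fcgr1, at 0.74, of 0.0449. The mean level of the 10 markers was 12.11 to 12.24 in WT and 11.99 to 12.17 in Rac2-/- arrays.

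Related genes from lists of 125 genes that are no members of the set were tested in the same fit, and 19 of the 108 that passed the filter had an adjusted p under 0.05 in limma, 14 higher in WT and 5 in Rac2-/- cells. The lists were written with earlier results of these arrays known.

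Of 17 further genes of classical monocytes, 2 passed the test, both with the higher level in Rac2-/- BMDMs. Vcan was 5.93 ± 0.35 in WT and 8.10 ± 0.63 in Rac2-/- cells (SD, n = 5 each), and the difference of -2.17 had an SE of 0.29 (adjusted p = 0.0049). Vcan passed in all 10 fits that left out an array. Its WT level lay below the array medians of 6.07 to 6.14, so its expression in WT cells and the size of the difference are uncertain. The embigin gene Emb, an adhesion molecule, was 11.12 ± 0.25 and 11.87 ± 0.22, a difference of -0.75 (SE 0.15, adjusted p = 0.0286), and passed in 4 of 10 such fits, with an adjusted p of up to 0.0869 (without WT 3). Ccr2, the receptor that defines these cells, differed by 0.13 (SE 0.22, adjusted p = 0.999), and Ifitm3, with the highest signal of the list, by 0.07 (SE 0.07, adjusted p = 0.947). The list's median difference was -0.21, and 7 of 17 means were higher in WT.

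Among 13 genes of non-classical monocytes, 2 passed, both with the higher level in Rac2-/- cells, while 8 of the 13 means were higher in WT. Itgax, the integrin CD11c, was 5.99 ± 0.17 in WT and 7.94 ± 0.59 in Rac2-/- BMDMs, and it differed by -1.95 (SE 0.25, adjusted p = 0.0042). As for Vcan, the WT level of Itgax lay below the array medians, so the size of the difference is uncertain. Itgal, the alpha chain of the integrin LFA-1, was 10.34 ± 0.20 and 10.96 ± 0.11, a difference of -0.62 (SE 0.11, adjusted p = 0.0175). Itgax passed in all 10 fits with an array left out and Itgal in 7, with an adjusted p of up to 0.0577 (without Rac2-/- 4). Cx3cr1, which was named after its value was seen, differed by -1.13 (SE 0.46, adjusted p = 0.389). The median difference of the list was 0.11.

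Of 20 other Ly6 and uPAR domain genes tested, 1 passed, with the higher level in WT, and 12 of the 20 means were higher in WT. Ly6f was 6.61 ± 0.23 in WT and 5.82 ± 0.23 in Rac2-/- BMDMs (SD, n = 5), and all WT arrays were above all Rac2-/- arrays. These levels are near the array medians of 6.07 to 6.14 and below the 7.10 that Rac2 read in Rac2-/- cells. Whether Ly6f itself was expressed is therefore uncertain, and as for Ly6i the feature may have caught RNA of other Ly6 genes. Its difference was 0.79 (SE 0.14, adjusted p = 0.0207), but it passed in 3 of 10 fits that left out an array, with an adjusted p of up to 0.0646 (without WT 3). Plaur, the urokinase receptor, differed by -0.14 (SE 0.13, adjusted p = 0.912). Under the replicate block Cd59a, a complement inhibitor, also passed, at a difference of -0.69 (adjusted p = 0.931 without and 0.00551 with the block). The median difference of the list was 0.03.

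Ly6e, Ly6i, Ly6a, Ly6c1 and Ly6c2 lie in a cluster of 15 Ly6 genes on chromosome 15, where Rac2 also lies, with 101 protein-coding genes between Ly6h and Rac2 in GRCm38.p6. In their annotated order they are Ly6d, Ly6g6g, Ly6k, Ly6m, Ly6e, Ly6i, Ly6a, Ly6c1, Ly6c2, Ly6a2, Ly6g, Ly6g2, Ly6f, Ly6l and Ly6h, and 11 of these 15 were read. On either side of Ly6i stand Ly6e, described above, and Ly6a. Ly6a2, which was named after its value was seen, was 10.23 ± 1.15 in WT and 9.09 ± 1.504 in Rac2-/- cells (SD, n = 5), which gave a difference of 1.14 with an SE of 0.75 (adjusted p = 0.784). Ly6g, the neutrophil surface marker, differed by 0.39 (SE 0.46, adjusted p = 0.975). Ly6m, named for its lack of overlap after its value was seen, differed by 0.39 (SE 0.13, adjusted p = 0.224). Ly6f was the one gene of the 9 other Ly6 genes read here that passed.

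**Figure D4:**
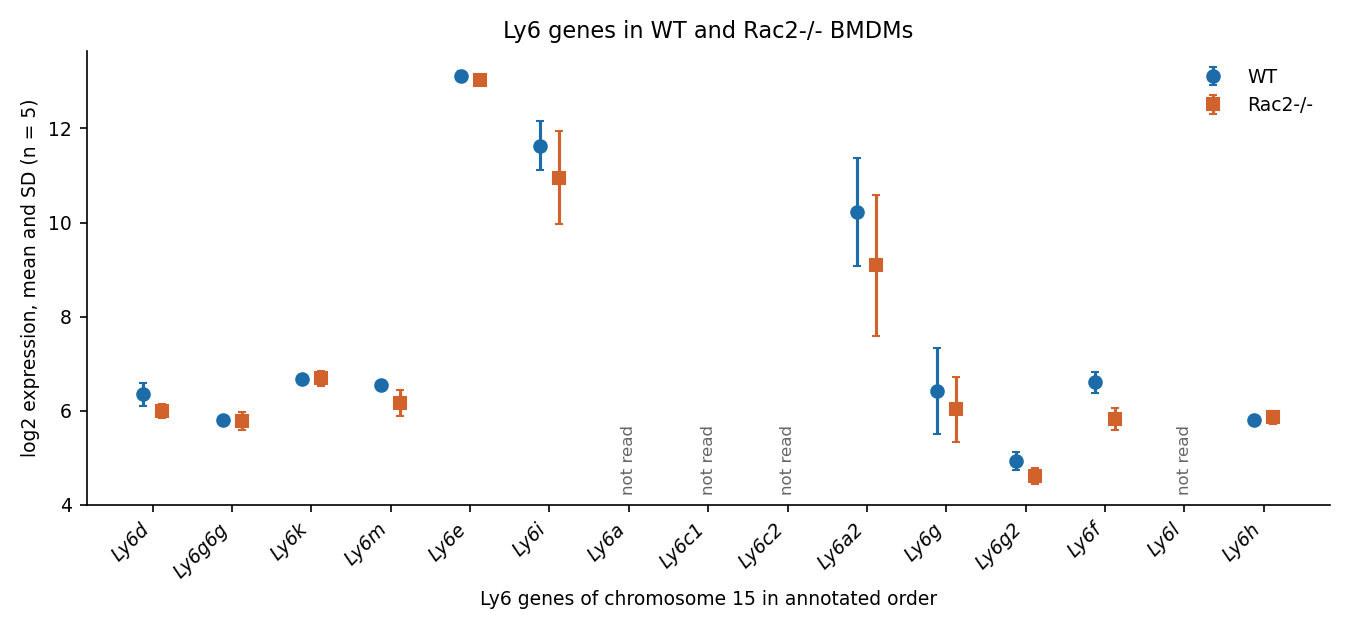
Mean log2 expression with SD (n = 5) of the Ly6 genes of chromosome 15 in annotated order, WT as circles and Rac2-/- as squares. Levels are to be compared within a gene and not between genes, and Ly6f had no overlap between the genotypes (6.61 against 5.82).

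The relatives of Chil3 and F13a1 gave few calls. Of 5 chitinase family genes tested 0 passed. Chil1 was 7.36 ± 1.00 in WT and 9.43 ± 0.96 in Rac2-/- cells, a difference of -2.07 (SE 0.55), with an adjusted p of 0.112 without and 0.0304 with the replicate block. Ctbs, with the highest signal of that list, differed by -0.04 (SE 0.15, adjusted p = 0.999). Of 16 coagulation, fibrinogen-like and transglutaminase genes 0 passed with or without the block, and Tgm2, a transglutaminase like F13a1, differed by -0.18 (SE 0.13, adjusted p = 0.835). The median differences were -0.04 and -0.09.

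Interferon-induced genes were the list with the most calls, and the list is set beside Fgl2, Ly6e and Ly6i, which are known to respond to interferons. All 23 genes measured had the higher mean in WT, 11 of them passed the test, and the median difference was 0.83. The largest differences among those that passed were those of Mx1 at 1.82 (SE 0.34, adjusted p = 0.0259), Oasl1 at 1.66 (SE 0.28, adjusted p = 0.0155) and Rsad2 at 1.41 (SE 0.18, adjusted p = 0.0046), all antiviral genes. They were followed by Oas3 at 1.08 (SE 0.20, adjusted p = 0.0229), Usp18, which removes the ubiquitin-like Isg15, at 1.05 (SE 0.16, adjusted p = 0.011) and the nucleic acid sensor Zbp1 at 1.05 (SE 0.21, adjusted p = 0.0346). Irf7, with the highest signal of the list, differed by 0.71 (SE 0.24, adjusted p = 0.264). Rsad2 and Usp18 passed in all 10 fits with an array left out, Oasl1 in 8, Oas3 in 4, Zbp1 in 2 and Mx1 in 1, and the highest adjusted p of Mx1 was 0.0767 (without Rac2-/- 4).

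In the arrays, the interferon list and Fgl2 had the same extremes among Rac2-/- samples but not among WT samples. The mean level of the 23 genes was 11.26, 11.43, 11.36, 11.33 and 11.50 in WT arrays 1 to 5 and 11.00, 10.39, 10.59, 10.54 and 9.99 in Rac2-/- arrays 1 to 5. Rac2-/- 1 was the highest and Rac2-/- 5 the lowest Rac2-/- array for the list and for Fgl2, and the WT arrays were the tighter group in both. In WT the list was highest in WT 5 and lowest in WT 1, whereas Fgl2 was highest in WT 2 and lowest in WT 3. Ly6i was highest in Rac2-/- 4 and lowest in Rac2-/- 5, and Ly6e was highest in Rac2-/- 3 and lowest in Rac2-/- 2. Whether interferon signalling had a part in the Fgl2 levels was not tested.

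Of 14 genes of alternative activation, for which Chil3 is also a marker, 3 passed, 2 with the higher level in WT and 1 in Rac2-/- cells. Means were higher in WT for 7 of the 14, with a median difference of 0.01. Mrc1, the mannose receptor, was 10.91 ± 0.04 in WT and 11.57 ± 0.14 in Rac2-/- BMDMs, and it differed by -0.66 (SE 0.08, adjusted p = 0.0035). The beta-glucan receptor gene Clec7a differed by 0.47 (SE 0.09, adjusted p = 0.0286) and the chemokine gene Ccl22 by 0.49 (SE 0.10, adjusted p = 0.0466). Ccl22 was 6.02 in WT and 5.54 in Rac2-/- cells, at or below the array medians of 6.07 to 6.14, so its expression is uncertain. Mrc1 passed in all 10 fits with an array left out, Clec7a in 4 (up to 0.0845, without WT 3) and Ccl22 in 0, where its adjusted p was 0.0546 to 0.121. Tgfb1 differed by -0.14 (SE 0.17, adjusted p = 0.976).

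**Figure D5:**
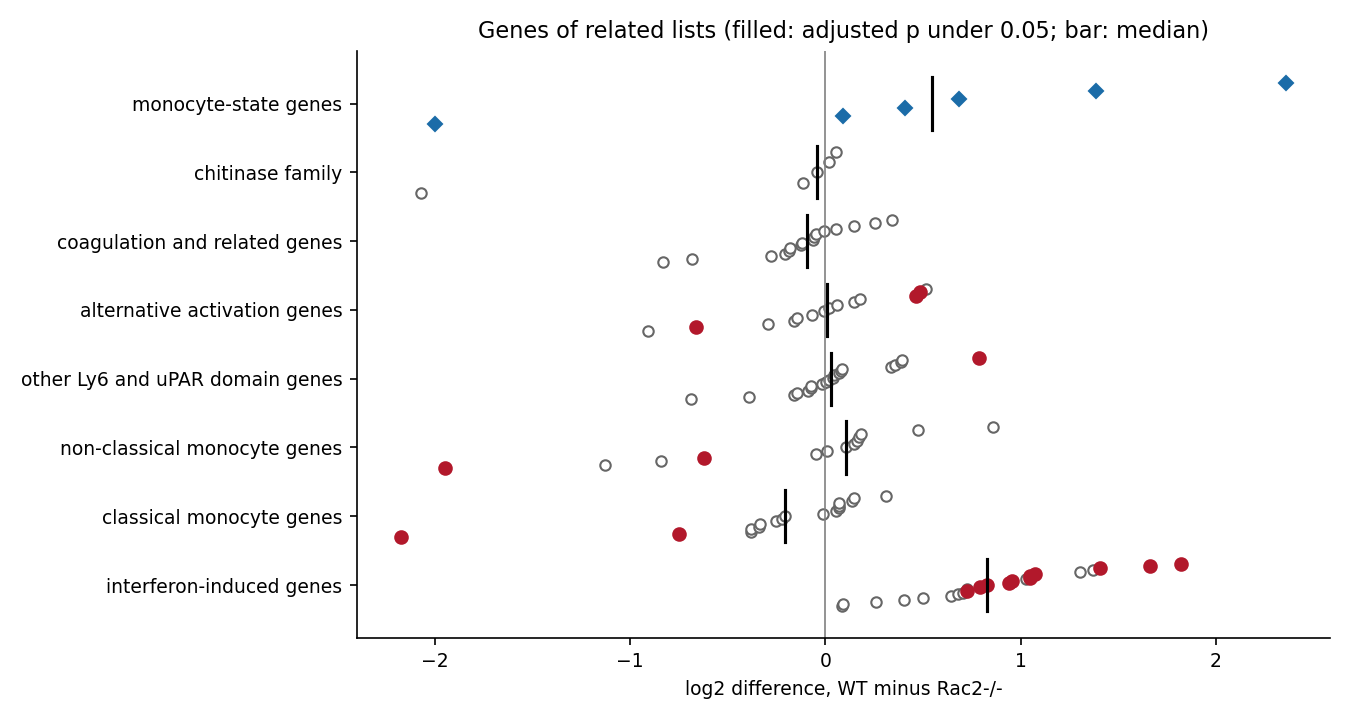
WT minus Rac2-/- log2 difference of the 6 genes (diamonds, not tested) and of the genes of 7 related lists (circles, filled where the adjusted p in limma is under 0.05), with a bar for each median. All interferon-induced genes lie to the right of 0, with a median of 0.83.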

How the data were processed

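RNA of BMDMs was measured on 10 arrays, and groups and replicate numbers were taken from the labels. The deposited values are log2 expression values that the authors made with RMA (background correction, quantile normalization and summary of probes). Their methods then describe a filter for genes expressed in at least 4 samples, batch removal by ComBat and limma. With 34760 features the deposited table is unfiltered, and no source used here says whether it went through ComBat or which software versions were used. No log base is given, and log2 was taken because the values run from 1.69 to 13.7. Array medians were 6.07 to 6.14, and 0 pairs of arrays were identical. The number of arrays, 5 per group, limits the precision.

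The platform annotation gave 1 symbol to 21640 features, several to 1321 and none to 11799. Symbols were updated by Entrez identifier for 21553 features, and of several features of a gene that with the highest mean was used. To match the number of genes the methods keep, features were ranked by their fourth-highest value, and those at 4.73 or more were tested. Tests ran under R 4.3.3 in limma 3.58.1, by lmFit and eBayes, with Benjamini-Hochberg adjustment over all these features and a threshold of 0.05. The interaction fit added the set of arrays (1 and 2 against 3 to 5), which the labels do not name as a batch. The scripts were tested on simulated data.

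The 9 genes and all lists were chosen with earlier results of these data known. Named were Rac2, the 9 genes, of each related list the genes past the threshold (the 6 with the largest differences where more passed) and the gene with the highest mean, and the 3 nearest profiles of the 3 genes with the largest differences. Cell type markers, the Ly6 neighbours and the genes the text marks were named after their values were seen. Same-numbered arrays deviated from their group means together, with correlations of 0.493 to 0.716. The main fit took no pairs, and same numbers were treated as pairs only in the replicate block. Other numbers of the same set correlated at 0.476 to 0.724, and 5 of 10 arrays correlated best with their own number. Other settings tried were no filter, the replicate block, a term for the array set, ComBat on that set (its parametric form, written out in R), a trended and robust variance, quantile normalization, centring on array medians, averaging a gene's features, and leaving out each array. Upstream sequences are those of RefSeq on GRCm38.p6. Protein sequences of the Ly6 genes were not analysed here.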

Additional observations from a re-analysis of the deposited data

Results flagged for a closer look

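Each group of 5 arrays was searched for an array far from the others, for 26 genes and thus 52 groups of arrays, and chance alone gives about 1 such array in 20 groups. The search gave 6 flags, each for 1 gene in 1 array, and none of them for Plac8, Fgl2, Ly6i, Ly6e, Chil3 or F13a1. Rac2-/- 5 was apart for 3 genes. Its Itgax level was 8.961, with the other Rac2-/- arrays at 7.49 to 7.90, its Oas3 level 9.819, with the others at 10.78 to 10.98, and its Oasl1 level 8.668, with the others at 10.08 to 10.33. WT 5 was low for Ly6f at 6.2, with the other WT arrays at 6.67 to 6.75. WT 1 was low for Ifit3 at 12.18, with the others at 12.34 to 12.40, and Rac2-/- 1 was low for Ccl22 at 5.253, with the others at 5.56 to 5.65.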

How the results depend on the processing

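The count of features past the threshold, 514, was 1716 with the replicate block, 2524 with a term for the array set and 4386 after ComBat on it. The 6 genes read were chosen on the genotype contrast, so nothing is read from which of them passed, here or with an array left out. Of these, Plac8 passed alone with the replicate block. Plac8, Fgl2 and F13a1 passed (3 genes) with the array set term and after ComBat, where 2524 and 4386 features passed. The 19 list genes past the threshold became 24 with the replicate block, of which Cd274 was not one (adjusted p = 0.0674), 28 with the array set term and 42 after ComBat. Leaving out 1 array at a time gave 245 (without WT 3) to 625 (without Rac2-/- 1) features, 0 to 2 of the 6 genes and 6 (without WT 3) to 26 (without Rac2-/- 1) list genes. It was 0 of the 6 genes without WT 2, WT 3, WT 4 or Rac2-/- 4, F13a1 in place of Plac8 without WT 1, and Plac8 with Fgl2 without Rac2-/- 1. Features fell to 297 without WT 2, 263 without WT 4, 281 without WT 5, 322 without Rac2-/- 2, 297 without Rac2-/- 3 and 274 without Rac2-/- 4, and list genes to 8, 7, 8, 10, 10 and 9 in the same order. The interaction gave 0 to 8 features with an array left out (8 without Rac2-/- 2, with 0 of the 6 genes among them). The median difference of the 6 genes was 0.31 to 0.81 with an array left out and kept its direction. For the 20 genes tested singly (Rac2 and the 19 list genes past the threshold), 268 of 360 values kept their direction and stayed past the threshold and 92 kept their direction but lost it, 86 of these with an array left out. Of the 6 genes, Chil3 changed sign, from 0.41 to -0.04 without WT 1. The causes were not tested.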

Other observations

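Markers of other cell types gave 1 call outside the macrophage and neutrophil lists. The chemokine receptor gene Ccr7, carried by mature dendritic cells, was 7.58 ± 0.20 in WT and 6.66 ± 0.30 in Rac2-/- cultures (SD, n = 5 each) and differed by 0.91 (SE 0.15, adjusted p = 0.0141 in limma). Of the other dendritic cell markers 0 passed, and the median difference of the 6 tested was 0.01. With the replicate block Xcr1, at a difference of -0.61, had an adjusted p of 0.00877, against 0.173 without it. Xcr1 was 5.04 in WT and 5.65 in Rac2-/- cultures, below the array medians of 6.07 to 6.14, so its expression is uncertain. All 4 markers of plasmacytoid dendritic cells had the higher mean in WT, and 0 passed. With that block Siglech, at a difference of 0.62, had an adjusted p of 0.0117 and Ccr9, at 1.05, of 0.0281, against 0.108 and 0.159 without it. Siglech was 6.54 in WT and 5.92 in Rac2-/- cultures, and Ccr9 was 6.16 and 5.11. These levels are near or below the array medians, so the expression of both genes is uncertain too.

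The 4 mast cell and basophil markers tested had a median difference of 0.91, and 0 passed. The basophil protease gene Prss34 was 7.08 ± 0.69 in WT and 5.89 ± 0.32 in Rac2-/- arrays, a difference of 1.18 (SE 0.31, adjusted p = 0.101). The mean level of the 6 markers measured was 5.57, 5.02, 5.52, 5.50 and 4.81 in WT arrays 1 to 5, where arrays 2 and 5 were again the lowest, and 4.58 to 4.84 in the Rac2-/- arrays. No marker of T and NK cells, B and plasma cells, progenitors, endothelial cells, fibroblasts or eosinophils passed in limma without the block, and with it 1 of the fibroblast markers, Dcn, did (adjusted p = 0.0173).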
